A study of Mus musculus with 4 samples.

Results

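Natural killer cells are innate lymphocytes that kill infected or transformed cells without rearranging an antigen receptor. They develop in the bone marrow from lymphoid progenitors under IL-15, which they read through a receptor that includes IL2RB, and the factors T-bet and Eomes shape their maturation. Each mature cell weighs signals from activating receptors such as NKp46 and NKG2D against those from inhibitory receptors, which in the mouse include members of the Ly49 family, and releases perforin and granzymes when activation prevails.

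Bone marrow mononuclear cells of C57BL6/J mice were taken from femur and tibia over a density gradient. They were profiled by droplet single-cell sequencing of transcript 5′ ends with unique molecular identifiers (UMIs). There were 2 TLR9-/- and 2 WT mice with 1 library each, called TLR9-/- 1, TLR9-/- 2, WT 1 and WT 2 here. TLR9-/- mice lack the endosomal receptor for unmethylated CpG DNA in all cells, no treatment is named for either genotype, the study's methods give 2 experiments with 1 mouse of each genotype, and the age of these 4 mice was not given in the sources used here. After the filters the libraries held 50204578, 63958243, 31210188 and 41384657 UMIs in the same order. Natural killer cells were chosen by measured transcripts, as cells with at least 2 UMIs summed over Ncr1, Klrb1c, Klre1, Klra8 and Gzma, with 0 UMIs of Cd3d, Cd3e, Cd3g and Siglech and at most 1 UMI of Cd79a and Cd79b together. This gave 355 of the 39167 cells that passed the filters, with 153 and 41 from the TLR9-/- libraries and 112 and 49 from the WT libraries. No barcode of these cells occurred among the natural killer cells of another library, while 112 to 185 barcodes of all cells were shared between any 2 libraries. The cells of a library held 419634, 174986, 174970 and 89640 UMIs in all, and the median per cell was 1788 and 2707 in TLR9-/- and 1111.5 and 1529 in WT.

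Most members lay far inside the threshold. The summed UMIs of the 5 genes had a median of 19, 29, 23 and 19 per cell, 74.9% of the 355 cells had at least 10, and 82.3% had UMIs of 3 or more of the 5 genes. Just inside the threshold, 6, 1, 5 and 1 cells had exactly 2 UMIs, and just outside it 28, 11, 11 and 27 cells had 1. Of all cells with at least 2 UMIs of the 5 genes, 173, 67, 83 and 27 were left out for a Cd3 transcript. Among B cells (at least 3 UMIs of Cd79a and Cd79b), which should lack these genes, 0.298%, 0.157%, 0.178% and 0.111% had at least 2 UMIs of the 5 genes, at a median depth of 1416, 1862.5, 1288 and 1649 UMIs. Among cells of the neutrophil lineage, which are deeper, the shares were 1.43%, 0.553%, 0.569% and 0.289% at a median of 4146.5, 4474.5, 2756 and 4527 UMIs.

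The 5 genes of the rule were present in all 4 libraries. Gzma, a serine protease of cytotoxic granules (GRCm38 chromosome 13, 113093825 to 113100981), reached 6265, 6149, 11991 and 8869 UPM (UMIs per 1000000 UMIs of a class of cells, here natural killer cells) in TLR9-/- 1, TLR9-/- 2, WT 1 and WT 2. Ncr1, which encodes the activating receptor NKp46 (chromosome 7 from 4337724 to 4345164), reached 550.5, 565.8, 680.1 and 435.1 UPM and was found in 67.6% of the 355 cells. Gzma alone supplied between 73.3% and 81.2% of the UMIs of the rule in each library, and 4 cells were chosen on Gzma alone. Of genes that the rule did not name, Nkg7, a granule protein of cytotoxic lymphocytes, was detected in 97.5% of the cells, Tyrobp, the adaptor DAP12, in 98.3%, the adaptor gene Fcer1g in 99.2% and Eomes in 26.8%. Nkg7 was detected in 96.1% to 99.1% of natural killer cells by library in 1.94% to 6.75% of B cells and in 21.6% to 36.1% of the deeper cells of the neutrophil lineage. T cell genes were scarce, with 8 UMIs of Trac, 1 of Cd4 and 0 of Cd8a and Cd8b1 over all 355 cells. Trbc1, whose transcript can arise without a productive receptor, was found in 27.6% of them. Of 6 markers of group 2 innate lymphoid cells, Il1rl1, Il5, Il13 and Areg had 0 UMIs in every library, and Gata3 and Rora, which other lymphocytes also express, gave 10, 8, 14 and 7 UMIs together. The 5 markers of group 1 innate lymphoid cells gave 53, 26, 18 and 6 UMIs, from 19, 8, 10 and 3 cells, with Tmem176a or Tmem176b the most abundant in each library. Itga1 and Cxcr6 of that list were at 0 in WT 2.

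The promoters of NKp46 and of granzymes A and B are shown because these genes carry the identity and the killing function of the cells and share a string of letters, the core of the Runx motif, set in capitals. Runx factors act in natural killer and cytotoxic T cells. Each window runs from 250 bases before to 50 bases after the start of transcription and is given 5′ to 3′ on the gene's strand, from RefSeq on GRCm38.p6. Ncr1 is at chr7:4337465-4337764 on the plus strand, Gzmb at chr14:56262285-56262584 and Gzma at chr13:113100932-113101231, both on the minus strand.
Ncr1: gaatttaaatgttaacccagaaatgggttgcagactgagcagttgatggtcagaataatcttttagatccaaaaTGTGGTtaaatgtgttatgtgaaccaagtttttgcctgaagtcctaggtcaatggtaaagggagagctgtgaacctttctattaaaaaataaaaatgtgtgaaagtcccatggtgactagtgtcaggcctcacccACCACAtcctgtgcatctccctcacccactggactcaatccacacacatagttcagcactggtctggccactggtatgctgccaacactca
Gzmb: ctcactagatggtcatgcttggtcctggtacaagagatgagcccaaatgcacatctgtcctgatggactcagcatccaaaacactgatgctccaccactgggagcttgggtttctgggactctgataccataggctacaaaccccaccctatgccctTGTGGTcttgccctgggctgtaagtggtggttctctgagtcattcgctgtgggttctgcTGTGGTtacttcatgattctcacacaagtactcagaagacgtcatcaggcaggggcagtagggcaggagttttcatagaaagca
Gzma: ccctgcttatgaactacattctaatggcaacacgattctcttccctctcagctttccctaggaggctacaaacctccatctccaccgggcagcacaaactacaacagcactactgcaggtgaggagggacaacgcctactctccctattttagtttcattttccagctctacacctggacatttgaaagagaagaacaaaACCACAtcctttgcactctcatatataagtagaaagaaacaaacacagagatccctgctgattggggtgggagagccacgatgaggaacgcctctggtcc
Each Ncr1 and Gzmb window held 2 matches and that of Gzma 1. Among the 5 genes of the rule and the 15 leading genes described next, 15 had a promoter in the table, 19 windows in all, and TGTGGT or its reverse complement ACCACA occurred in 11 windows of 10 genes (57.9%). It occurred in 16.8% of all 32851 promoter windows of this length. The Ets core AGGAAG or CTTCCT occurred in 36.8% of the 19 windows against 35.4% of all, and the T-box core GGTGTGA or TCACACC in 5.26% against 3.98%. Some genes have 2 overlapping windows, and a match is a string of letters and not a measured site.

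Beyond the rule, the 15 genes that most set these cells apart from all other cells included receptors, genes of cytotoxic granules, a transcription factor, chemokines and the noncoding transcript AW112010, although not all of them separated these cells from cells with Cd3 transcripts, as described further on. Genes were ranked by the smallest log2 ratio over the 4 libraries between UPM in natural killer cells and in all other cells, each with 1 added, among 530 genes with at least 20 UMIs in the natural killer cells of every library. This contrast is a description, since the cells were chosen on it. The first was Klra4, the activating receptor Ly49D, with 462, 526, 583 and 502 UPM in natural killer cells and between 0.48 and 1.93 in the rest (log2 ratio 7.31 to 8.40). The next was Prf1, the pore-forming perforin, with 191, 200.02, 343 and 324 UPM (log2 ratio 6.48 to 7.74). Klra7, the inhibitory receptor Ly49G, Klri2, Klrb1a, Klrk1 (NKG2D) and Klrc1 (NKG2A) were further receptors among the first 15. Gzmb, Ctsw, Eomes, Il2rb, Sh2d2a and the chemokine genes Ccl5 and Xcl1 completed the named genes with AW112010. Ccl5 was the most abundant of the 15, with 13231 and 17287 UPM in TLR9-/- and 22798 and 22312 in WT. Il2rb, the receptor chain for IL-15, was 529, 686, 646 and 1227 UPM, and Eomes was 138, 120.01, 160.03 and 257 UPM. AW112010 was 3791, 2674, 6744 and 4384 UPM, the second most abundant of the 15.

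**Figure D1:**
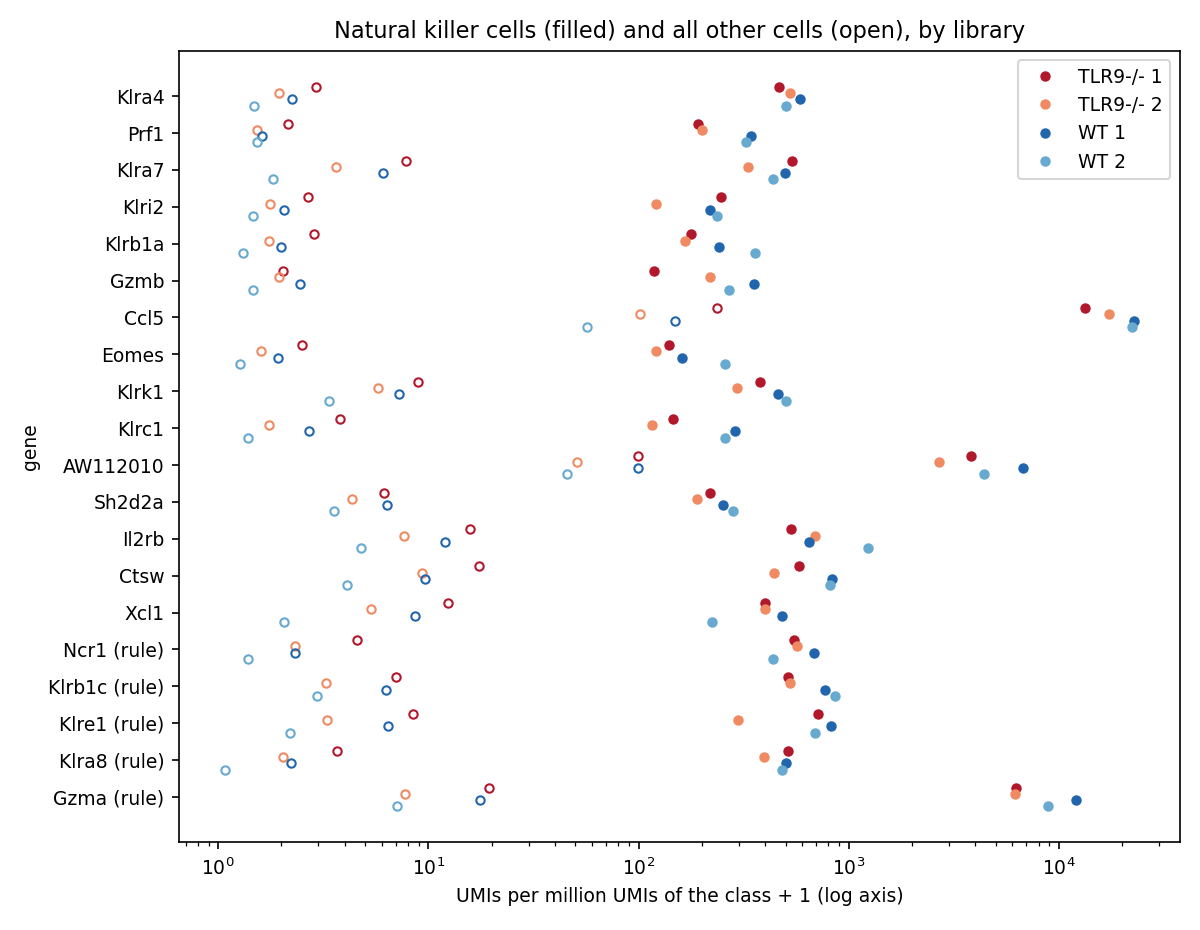
UPM plus 1 (log axis) for the 15 leading genes and the 5 genes of the rule, with natural killer cells as filled and all other cells as open circles in the 4 libraries. Every filled circle lies to the right of the open ones of the same gene, and Gzma and Ccl5 are the most abundant.

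Cells that passed the threshold of the 5 genes but held a Cd3 transcript and met the limits on Siglech, Cd79a and Cd79b formed a group of 161, 60, 72 and 22 cells. They are set beside the natural killer cells and beside T cells, which had at least 2 Cd3 UMIs and fewer than 2 UMIs of the 5 genes under the same limits (433, 263, 127 and 79 cells). Klra4 was 142, 110, 123 and 51.0 UPM in them, 0, 0.90, 0 and 0 in T cells and 462 to 583 in natural killer cells. Perforin was 38.4, 33.6, 23.4 and 0 UPM in the Cd3 group, below natural killer cells in every library. Xcl1, in contrast, was 673, 514, 666 and 194 UPM in the Cd3 group and 400.3, 400.03, 480.1 and 223 in natural killer cells, higher in the Cd3 group in every library but WT 2. Il2rb (618 and 725 UPM in TLR9-/- 1 and WT 1) and Ctsw (606 and 514 UPM in TLR9-/- 1 and TLR9-/- 2) were higher in the Cd3 group in those libraries, as were Klra7 in TLR9-/- 2 (398 against 331 UPM) and Klrc1 in TLR9-/- 1 (162 against 145 UPM). The other leading genes were lower in the Cd3 group in every library. Within the group, 51 of its 315 cells had a single Cd3 UMI, with Ncr1 in 68.6% and Trac in 5.88% of them, whereas among the 264 with 2 or more, Ncr1 was found in 33.0% and Trac in 37.1%. In TLR9-/- 1 and TLR9-/- 2, 35 and 8 cells had a single Cd3 UMI, against 8 and 0 in the WT libraries.

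Ly49 receptors are expressed in overlapping combinations, so that single cells of 1 animal differ in what they read on target cells. To compare cells of unequal depth, each was thinned to 1000 UMIs, which left 283 cells and dropped 19, 2, 43 and 8. Of Klra1, Klra3, Klra4, Klra7 and Klra9, the 283 cells showed 0 in 35.3%, 1 in 33.6%, 2 in 24.4% and 3 or more in 6.71%. Klra7 was found in 33.9%, Klra4 in 29.7%, Klra9 in 17.3%, Klra3 in 14.8% and Klra1 in 8.83% of the cells. Without thinning, Klra7 was found in 43.1% and Klra4 in 41.7% of the 355 cells. These shares mark detection at low depth and not the true number of receptors on a cell. Klra7 was found in 39.3% of cells with Klra4 and in 31.7% of cells without it, and in 15 of the 25 cells with Klra1 against 31.4% of the rest, the largest gap of the 10 pairs. In 9 pairs the second gene was found more often in cells with the first, and Klra9 was found in 16.7% of cells with Klra7 and 17.6% of cells without it. Klra5, Klra6, Klra10, Klra17 and Klra2 had between 0 and 13 UMIs in all. The Ly49 genes lie in a cluster of similar sequences, so that reads could be split between members by the counting. By library, Klra4 was found in 28.4% and 38.5% of TLR9-/- cells and 27.5% and 29.3% of WT cells, and the groups overlapped. Klra9 was found in 17.2% and 2.56% against 23.2% and 22.0%, where the low value rests on 1 cell of 39.

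**Figure D2:**
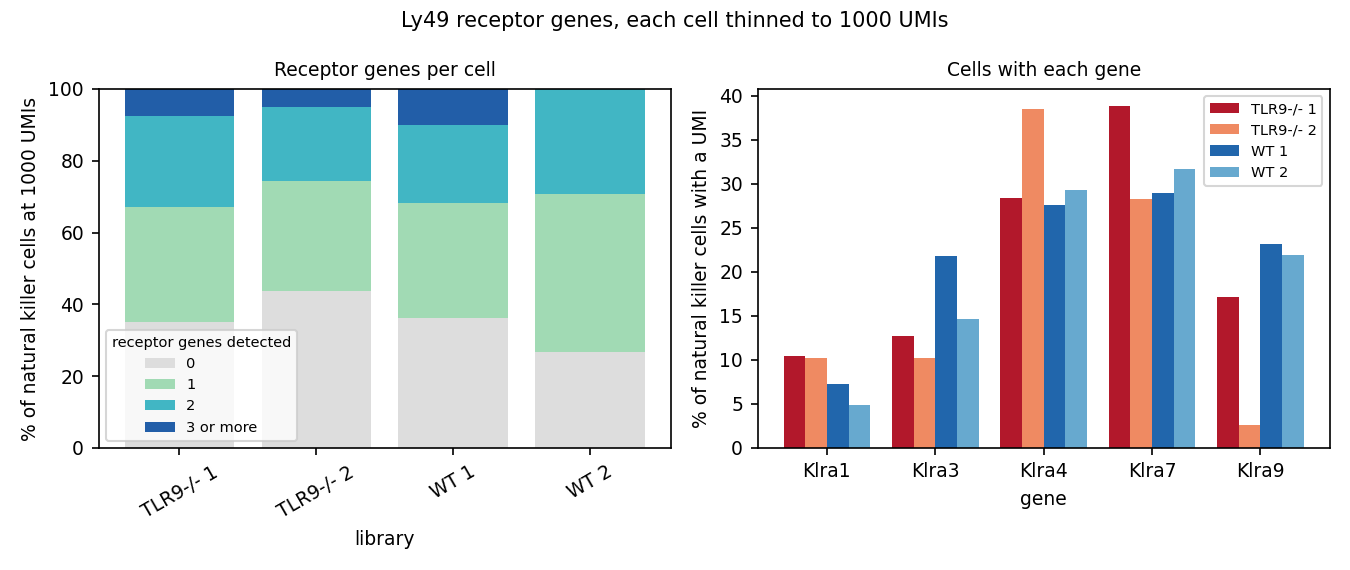
Left, share of natural killer cells (each thinned to 1000 UMIs) with UMIs of 0, 1, 2 or 3 and more of the genes Klra1, Klra3, Klra4, Klra7 and Klra9 in each library; right, share of cells with a UMI of each gene. Between 26.8% and 43.6% of the cells showed none of the 5 genes, and Klra4 and Klra7 were the most frequent.

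Markers of early and of late natural killer cells were both detected, most of them in a minority of the cells. The shares are of cells with a UMI after thinning to 1000 UMIs, beside B cells and cells of the neutrophil lineage thinned alike (283, 12051 and 5053 cells). Of 13 early markers, 7 were found in a larger share of natural killer cells than of both other cell types in every library. Cd7 was found in 53.4% of natural killer cells against 1.52% of B cells and 1.60% of the neutrophil lineage (67.3% of natural killer cells before thinning), Ctla2a in 29.0%, Xcl1 in 25.1% and Cd27 in 8.48%. Ltb, at 16.96%, was below the 24.0% of B cells. Of 12 late markers, 8 were above both other cell types in every library. Ccl5 was found in 94.0% (96.9% before thinning), Gzmb in 18.4%, Cma1 in 14.5%, Spn (CD43) in 13.1% (28.7% before thinning), Klrg1 in 6.71%, S1pr5 in 4.95% and Cx3cr1 in 2.83%. Ly6c2 (16.6%) and Itgam (CD11b, 5.65%) were below the 64.1% and 19.0% of the neutrophil lineage. This comparison cannot show whether natural killer cells express them. Itgam was above B cells (1.05%) in every library, while Ly6c2 (9.32% of B cells) was below them in TLR9-/- 1, at 9.70% against 10.9%. The part of free RNA in these 2 shares was not tested. Chemokine transcripts varied between mice of the same genotype. Ccl4 was 909 and 1124 CPM in TLR9-/- and 2219 and 163 in WT (CPM, UPM after edgeR's scaling between libraries), and Ccl3 was 438 and 218 against 477 and 149. In both genes the TLR9-/- libraries lay between the WT libraries.

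The share of natural killer cells did not separate the genotypes, whereas natural killer cells were fewer per T cell in both TLR9-/- libraries. Natural killer cells made up 1.42% (exact Clopper-Pearson 95% interval 1.20 to 1.66) and 0.46% (0.33 to 0.62) of all cells in TLR9-/- and 1.06% (0.87 to 1.27) and 0.55% (0.41 to 0.73) in WT. The intervals cover counting error only. The mean was 0.939% ± 0.678 in TLR9-/- and 0.805% ± 0.360 in WT (SD, n = 2 libraries per genotype). For 2 against 2 libraries the lowest p that the exact permutation test can give is 0.33. The log2 ratio, taken as the difference between the genotypes in mean log2 share, was 0.08 (exact permutation test, two-sided p = 1). Libraries numbered 1 gave 0.42 and libraries numbered 2 gave −0.26, and the value was −0.73 without TLR9-/- 1, 0.89 without TLR9-/- 2, 0.55 without WT 1 and −0.39 without WT 2. Both libraries numbered 1 had a higher share than those numbered 2, by 1.63 on the log2 scale in TLR9-/- and 0.94 in WT. T cells made up 4.02% and 2.95% of the cells in TLR9-/- and 1.20% and 0.888% in WT. Per 100 natural killer plus T cells, natural killer cells numbered 26.1 and 13.5 in TLR9-/- and 46.9 and 38.3 in WT, and the genotypes did not overlap (log2 ratio −1.17, exact permutation test, two-sided p = 0.33). With every cell thinned to 1000 UMIs these values were 27.7 and 16.3 against 39.7 and 39.3. With 2 libraries per genotype, no share can pass a threshold of 0.05 in the exact permutation test.

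A larger share of natural killer cells held UMIs of division genes in both TLR9-/- libraries. A cell was counted, and is called cycling in the plot of shares, when 3 or more of its 1000 thinned UMIs fell on 22 genes of the G2 and M phases. This held for 17 of 134 (12.7%) and 6 of 39 (15.4%) cells in TLR9-/- and for 6 of 69 (8.70%) and 1 of 41 (2.44%) in WT. The mean was 14.0% ± 1.91 against 5.57% ± 4.42, a difference of 8.47 percentage points, with both TLR9-/- libraries above both WT libraries (SD, n = 2, two-sided exact permutation test, p = 0.33). The difference was 3.99 points between libraries numbered 1 and 12.9 between those numbered 2, and it was 9.82 without TLR9-/- 1, 7.12 without TLR9-/- 2, 11.6 without WT 1 and 5.34 without WT 2. In T cells it was 0.0087 points, from 4.02% and 6.92% against 7.08% and 3.85%, and whether the 2 cell types differ was not tested for this share. Before thinning the shares were 18.3%, 22.0%, 8.04% and 4.08%. After thinning to 500 UMIs, with all 355 cells kept, they were 8.50% and 2.44% against 4.46% and 2.04%, the genotypes overlapped, and the difference was −0.81 points without TLR9-/- 1. The part of free RNA in these shares was not tested. Without the 19 members that held UMIs of other lineages, described with the gene comparison, the shares were 9.76% and 10.8% against 6.06% and 2.50%.

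**Figure D3:**
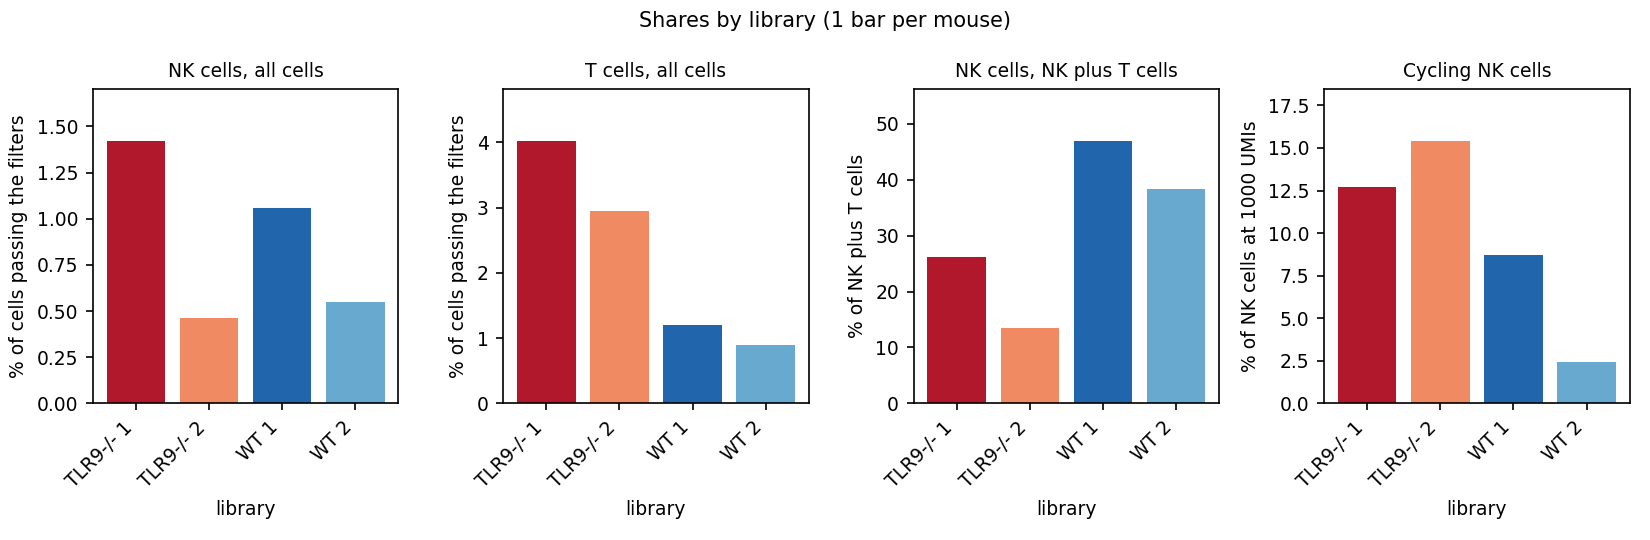
Shares by library, 1 bar per mouse: natural killer (NK) cells and T cells as percent of all cells, natural killer cells as percent of natural killer plus T cells, and cycling cells as percent of the natural killer cells thinned to 1000 UMIs. The share of natural killer cells overlaps between the genotypes, while the T cell share, the third panel and the cycling share do not.

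To ask how natural killer cells differ between TLR9-/- and WT, UMIs were summed over the natural killer cells of each library and compared by edgeR's quasi-likelihood test with Benjamini-Hochberg adjustment. Of 2474 genes tested, 7 rose in TLR9-/- (adjusted p under 0.05; 0.283% of the genes tested) and 0 fell, and 217 had an unadjusted p under 0.05 (8.77%; 129 higher and 88 lower). DESeq2 gave 7 higher, with 6 of these genes and Prtn3 in place of Ltf (adjusted p = 0.0929), and 1 lower, Trim12a. With the library number as a block, edgeR called 0 genes, and the adjusted p was 0.163 for BC018473, 0.324 for St6galnac2, 0.0751 for Camp and 0.111 for Lcn2. Tlr9 (chromosome 9 from 106222598 to 106226883) could not be compared, since it had 0 UMIs in the natural killer cells of every library. A count of 0 allowed up to 7.15, 17.1, 17.1 and 33.5 UPM in the 4 libraries, counting error only. Over all cells, Tlr9 had 41 and 48 UMIs in TLR9-/- and 120 and 97 in WT, or 0.817 and 0.750 against 3.84 and 2.34 UPM. The 7 genes fell into a pair from neighbouring loci on chromosome 11 and 5 genes of neutrophil granules or neutrophil secretion. A gene was tested only where at least 2 libraries reached 57.2 UPM. Camp reached this limit in all 4 libraries, and the others of the 7 in both TLR9-/- libraries and not in both WT libraries. Their direction is thus in part fixed by the filter. Of all 2474 genes, 433 were admitted in this way, and 276 through both WT libraries and not both TLR9-/- libraries.

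BC018473 and St6galnac2 were detected in TLR9-/- natural killer cells and not in WT. BC018473, annotated as an antisense RNA (ENSMUSG00000056032, chromosome 11, 116752167 to 116759373), was counted with 119 and 51 UMIs in TLR9-/- 1 and TLR9-/- 2 and 0 in both WT libraries, or 330 and 337 CPM against 0. It was found in 75 and 21 cells and was at least 25.2-fold higher (bound against 3 UMIs over the WT group, adjusted p = 0.0039). St6galnac2, a sialyltransferase gene (ENSMUSG00000057286, chromosome 11 from 116675303 to 116694868), had 47 and 19 UMIs against 0 and 0 and was at least 9.79-fold higher (adjusted p = 0.0319). It overlaps a second annotated gene of the same symbol, and 1810032O08Rik on the other strand, so that its reads could be split. Both genes were also at 0 in WT T cells, with 177 and 397 UMIs of BC018473 and 79 and 72 of St6galnac2 in TLR9-/- T cells. The reverse pattern was seen for Trim12a, a tripartite motif gene on chromosome 7 (from 104299894 to 104315466), with 0 and 0 UMIs in TLR9-/- and 15 and 9 in WT. It was at least 18.0-fold lower but did not pass the threshold in natural killer cells (adjusted p = 0.0559). In T cells, where 4 of 6138 genes passed (0.0652%), Trim12a fell (0 and 0 against 69.9 and 64.2 CPM, adjusted p = 0.0226).

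The other 5 genes were Lcn2, Wfdc21, Camp, Ngp and Ltf. They encode lipocalin 2, a WFDC protein, cathelicidin, neutrophilic granule protein and lactotransferrin. Camp was 3259 and 4802 CPM in TLR9-/- and 129 and 407 in WT (log2 fold change of 4.02 ± 0.48 SE, adjusted p = 0.0067). Lcn2 was 781 and 595 CPM against 45.2 and 81.3 (log2 fold change of 3.56 ± 0.38 SE, adjusted p = 0.0039). Ngp, Wfdc21 and Ltf had log2 fold changes of 4.14, 4.12 and 3.44. In none of the 5 did the libraries of the genotypes overlap, which for all but Camp is in part fixed by the filter on low counts. Their UMIs came from few cells. The 5 members with the most UMIs of the neutrophil markers held 89.7% and 98.7% of these UMIs in TLR9-/- and 78.3% and 56.1% in WT. Camp was found in 19 of 153, 6 of 41, 8 of 112 and 17 of 49 cells. The 9 neutrophil markers summed to 25789 and 19144 UPM in TLR9-/- and 869 and 3559 in WT, with S100a9 the most abundant. Of these 9 genes, 4 rose (Camp, Ngp, Ltf and Lcn2), 7 had an unadjusted p under 0.05 and the median log2 fold change was 3.49. S100a9 itself was 10858 and 7712 CPM against 368 and 1586 (adjusted p = 0.467).

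A limit on other lineages separated these 5 genes from the pair on chromosome 11. Members with over 2% of their UMIs on the neutrophil and monocyte lists, over 2% on the erythroid list or over 1% on the B list numbered 11, 3, 3 and 2. They had a median of 6367, 7830, 2216 and 896 UMIs, against 1717, 2649, 1102 and 1570 in the other members. They held between 95.5% and 97.4% of the UMIs of each of the 5 genes, which is in part by construction, since the limit uses Camp, Ngp, Ltf and Lcn2. Without them, Camp had 14 and 7 UMIs in TLR9-/- and 7 and 27 in WT, and all 5 genes were too low to be tested. Cells marked as doublets by Scrublet, which does not use the lists, numbered 10, 6, 2 and 1 among the members. Without these marked cells Camp had a log2 fold change of −0.86 (edgeR, adjusted p = 0.911) and Ngp one of 0.37 (adjusted p = 0.995). BC018473 and St6galnac2 kept an adjusted p under 0.05 in both settings, but St6galnac2 did not with at least 4 UMIs of the 5 genes (adjusted p = 0.0638) or without TLR9-/- 1 (adjusted p = 0.161). Without the 19 members 3 of 2256 genes passed in all (0.133%). The gene that joined the pair was Prtn3, proteinase 3 of granulocyte precursors, at 620 and 558 CPM in TLR9-/- and 92.2 and 141 in WT (log2 fold change of 2.40 ± 0.34 SE, adjusted p = 0.0493). Prtn3 was chosen for mention after its values were seen.

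**Figure D4:**
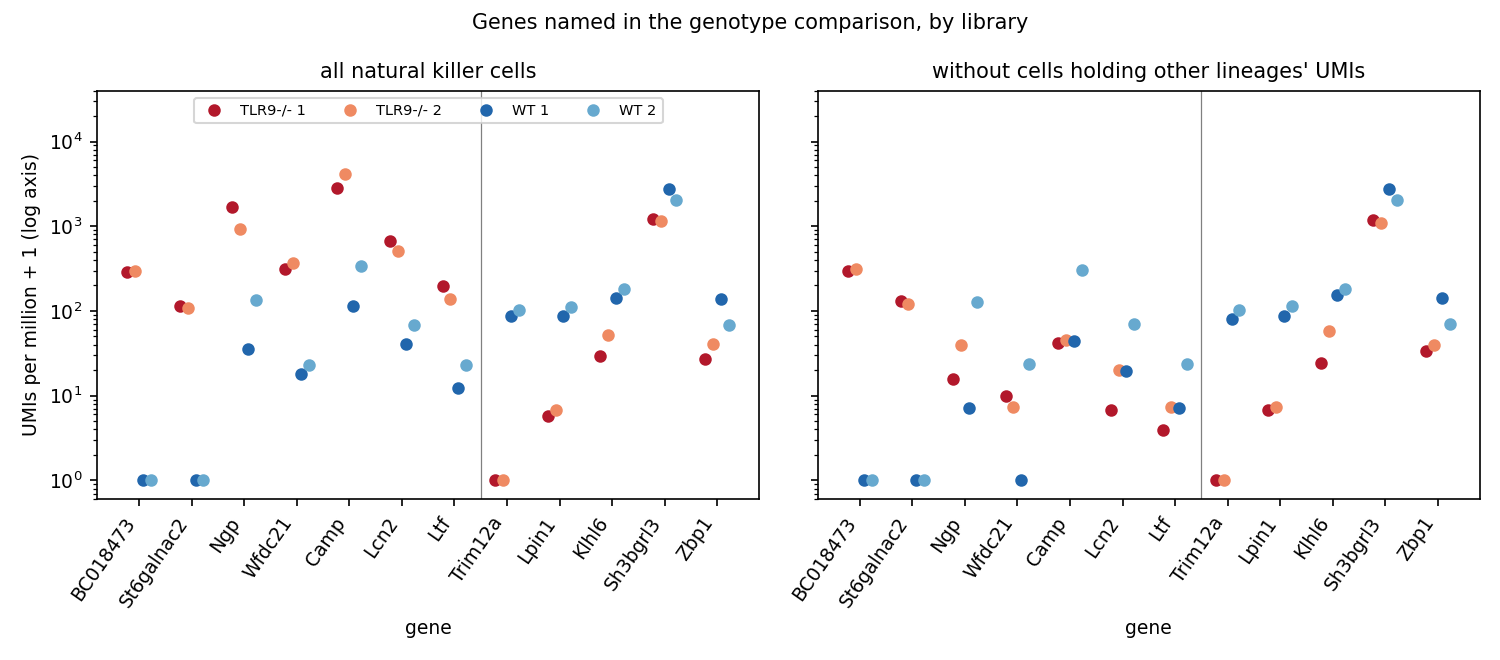
UPM plus 1 (log axis) in the natural killer cells of each library for the genes named in the genotype comparison, from all members (left) and without the 19 members that held UMIs of other lineages (right). The vertical line divides the 7 genes that passed the test from the 5 given as values. BC018473, St6galnac2 and Trim12a keep their pattern on the right while Camp, Lcn2, Ngp, Wfdc21 and Ltf do not.

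No gene was lower in TLR9-/- at an adjusted p under 0.05 by edgeR (88 at an unadjusted p under 0.05), and DESeq2 called Trim12a (adjusted p = 0.00698). The 5 with the smallest p among lower genes were Trim12a, Lpin1, Klhl6, Sh3bgrl3 and Zbp1. Lpin1, a phosphatidate phosphatase (chromosome 12 from 16535669 to 16610966), was 5.54 and 6.61 CPM in TLR9-/- and 96.8 and 136 in WT (adjusted p = 0.0684). Klhl6, a ubiquitin ligase adaptor of lymphocytes, was 33.3 and 59.5 against 161 and 217 CPM, and Sh3bgrl3 was 1427 and 1336 against 3096 and 2454 CPM. Zbp1, a sensor of Z-form nucleic acids, was 30.5 and 46.3 against 155 and 81.3 CPM (adjusted p = 0.467). In each of these the genotypes did not overlap. For Trim12a, Lpin1, Klhl6 and Zbp1 this was fixed by the filter on low counts, since only the WT libraries reached its limit of 57.2 UPM. The 5 were also chosen by their p. Across all genes tested, both TLR9-/- libraries lay above both WT libraries in 21.2% and below them in 19.4%.

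Gene lists were described by their members, beside a median log2 fold change of 0.01 over all genes tested. A gene was tested where at least 2 libraries reached 57.2 UPM (10 UMIs in a library of median size), so that a member that reached it in both libraries of 1 genotype and not in both of the other had to differ. That held for at most 3 tested members of each list described here other than those of interferon and of the cell cycle, for which counts over all members are given instead. Of 13 natural killer identity genes, 12 had a log2 fold change below 0 and 0 passed the adjusted threshold (median −0.62, 5 with an unadjusted p under 0.05), and in 10 both TLR9-/- libraries lay below both WT libraries. Ccl5 was 15386 and 20008.5 CPM in TLR9-/- and 25732.5 and 27111 in WT, Nkg7 3525 and 2950 against 5090 and 4419, and Klrd1 (CD94) 1183 and 675 against 1658 and 1206. Tyrobp was 4736 and 4458 CPM against 5515 and 6818. Without the 19 members the median of this list was −0.52. Without Scrublet-marked cells the log2 fold change of Nkg7 went from −0.55 to −0.30, that of Ccl5 from −0.58 to −0.33 and that of Ctsw from −0.69 to −0.37.

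Of 14 cytotoxic effectors tested, 12 had a value below 0 and 0 passed (median −0.37). Perforin was 222 and 232 CPM against 387 and 393 (log2 fold change of −0.78 ± 0.28 SE, adjusted p = 0.491). Ctsw, the protease cathepsin W, was 673 and 509 CPM against 935 and 989.5, while Srgn, the core protein of granule proteoglycan, was 751 and 675 against 826 and 718 and overlapped. Among adaptors and kinases (median −0.48 over 14 genes, 13 below 0, 0 passing), Hcst, the DAP10 adaptor of NKG2D, was 834 and 622 CPM against 1148 and 1545, and Lck 269 and 278 against 329 and 420.2. Of 9 activating receptors outside the Ly49 family 7 were below 0 (median −0.33), among them Klrk1 (NKG2D) at 438 and 337 CPM against 516 and 609.99. Of 2 inhibitory receptors tested outside that family, Klrc1 (NKG2A) was 169 and 132 CPM against 323 and 312 (adjusted p = 0.469) and Tigit overlapped. None of these genes passed.

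Cytokine receptors and their signalling genes had a median of −0.70 over 10 genes. Il2rb was 615 and 794 CPM against 729 and 1491 and overlapped, while Ifngr1, a chain of the interferon gamma receptor, was 430 and 536 against 639 and 976 (adjusted p = 0.528). Transcription factors had a median of −0.32 over 15 genes. Id2, which natural killer cells need for maturation, was 352 and 542 CPM against 664 and 1139 (adjusted p = 0.491), and Ets1 was 222 and 172 against 323 and 420.2. Genes of homing and adhesion had a median of −0.49 over 11 genes. Ly49 receptors (−0.16 over 5), early markers (−0.09 over 9), late markers (−0.28 over 7), early response genes (−0.08 over 6) and chemokines and cytokines (0.05 over 8) lay nearer to 0. Without the 19 members the median was −0.21 for transcription factors, −0.17 for late markers, −0.03 for early markers, 0.12 for chemokines and cytokines and 0.11 for early response genes, which changed sign. In each of these lists 0 genes passed the adjusted threshold.

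Most genes that interferon induces had too few UMIs in these cells to be tested. Over all 26 on the list, 24 had a lower mean UPM in TLR9-/- than in WT, against 45.04% of the 11931 genes with a UMI. In 13 of the 26 both TLR9-/- libraries lay below both WT libraries, against 1685 of the 11931 genes. The list summed to 839 and 1080 UPM in TLR9-/- and 2298 and 1216 in WT (873 and 951 against 2115 and 1218 without the 19 members). The size of this difference depended on the WT library. Only 8 had enough UMIs to be tested, and 5 of these, among them Ifi203, Zbp1 and Trim30a, reached the limit in both WT libraries and not in both TLR9-/- libraries, so that the signs of the 8 are in part fixed by the filter. Of the 8, 0 passed the adjusted threshold. Slfn2, a regulator of lymphocyte quiescence, was 108 and 172 CPM against 232 and 244 (adjusted p = 0.544). Ifi203 was 166 and 59.5 against 226 and 271, Ifi47 152 and 92.6 against 226 and 189.8, and Trim30a 30.5 and 39.7 against 90.3 and 94.9 CPM (adjusted p = 0.491). Ifi27l2a, which of the 8 had the highest mean CPM over all libraries, overlapped, at 44.3 and 417 against 484 and 122 CPM. Isg15 was not tested and had 4 and 4 UMIs in TLR9-/- and 33 and 0 in WT. Of the genes that carry TLR9 signals, 3 of 13 were tested (Unc93b1, Nfkb1 and Nfkbia), their genotypes overlapped, and 0 passed. In T cells the interferon list summed to 2547 and 2242 UPM in TLR9-/- and 4341 and 1582 in WT, and the genotypes overlapped.

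Genes of the cell cycle had the opposite sign. All 22 G2/M genes and all 16 genes of DNA replication had a higher mean UPM in TLR9-/-, against 54.96% of the genes with a UMI. Of the G2/M list 12 genes were tested and of the replication list 11, and 10 and 11 of these reached the limit in both TLR9-/- libraries and not in both WT libraries, so that the signs of the tested genes are in part fixed by the filter. Of the tested genes 0 passed the adjusted threshold. Mki67 was 180 and 278 CPM in TLR9-/- and 77.4 and 13.6 in WT (log2 fold change of 2.00 ± 0.52 SE, adjusted p = 0.467), and Mcm6, a subunit of the replicative helicase, 152 and 179 against 83.9 and 54.2 (adjusted p = 0.491). Ube2c, the tested G2/M gene with the highest mean CPM over all libraries, was 493 and 317 CPM against 297 and 13.6. The 22 G2/M genes summed to 2485.5 and 2354 UPM in TLR9-/- and 1692 and 268 in WT, the replication genes to 1318 and 1709 against 834 and 357, and the size of the difference depended on the WT library. Mki67 was 3.99 without WT 1 (edgeR, adjusted p = 0.0019) and 1.48 without WT 2, with an adjusted p of 0.0268 without TLR9-/- 1. Top2a went from 0.98 to 2.32 without WT 1 and to 0.50 without WT 2, and Birc5 from 1.22 to 3.24 and 0.62. In T cells the G2/M list summed to 778 and 1746 UPM against 1315 and 1273, and the replication list to 848 and 1122 against 850.2 and 529, and the genotypes overlapped in both. The abundant chaperone genes Hsp90ab1 and Hsp90aa1, which were on no list and were chosen after their values were seen, had log2 fold changes of 1.01 and 1.23 (adjusted p = 0.425 and 0.366). WT 2 had 0 to 5 UMIs of every tested gene on both lists in its natural killer cells. Without the 19 members the G2/M list summed to 2351 and 2018 against 1728 and 273 UPM. Erythroid markers had the same sign in natural killer cells, with all 7 higher in TLR9-/- by mean UPM, 0 of 5 tested passing, and sums of 1547 and 1794 UPM in TLR9-/- against 926 and 446 in WT, Hbb-bs the most abundant over all 4 libraries. Without the 19 members the erythroid sums were 399 and 1845 against 799 and 444 UPM, and their part in the cell cycle values was not tested.

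**Figure D5:**
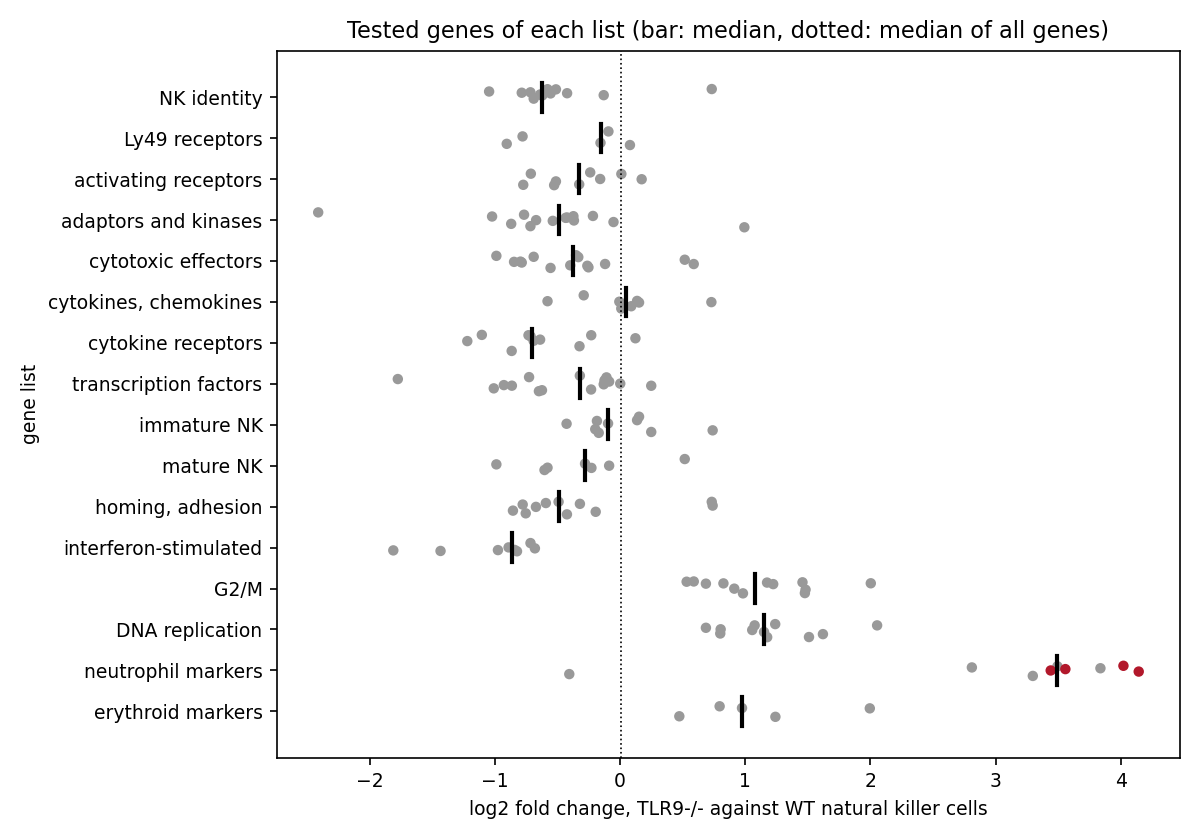
Log2 fold change of TLR9-/- against WT natural killer cells for the tested genes of 16 lists, with 1 point per gene, red where the adjusted p was under 0.05 and grey elsewhere, a bar at the list's median and a dotted line at the median of all genes (0.01). Only neutrophil markers have red points among these lists. Of these, Ngp, Ltf and Lcn2 reached the limit of the filter on low counts in both TLR9-/- libraries and not in both WT libraries. Identity genes lie mostly below 0. The interferon-induced genes below 0 and the 2 cell cycle lists above 0 hold members that the filter admitted through 1 genotype, and some other lists hold fewer such members.

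The genotype difference was compared with that in T cells of the same libraries, with library as a term. Of 4094 genes, 3 passed (0.0733%): Hbb-bt and Hba-a2 with a higher and Fn1 with a lower difference in natural killer cells. For the globin gene Hba-a2 the difference between the log2 fold changes was 4.34 (standard error 0.39), and the values came from T cells, with 153 and 130 UPM in TLR9-/- and 1494 and 1322 in WT, whereas natural killer cells had 85.8 and 154 against 51.4 and 66.9. Over 7 erythroid markers the median log2 fold change in T cells was −2.77. With cells that held UMIs of other lineages left out of both cell types, the difference for Hba-a2 was −0.63 and did not pass, which is in part by construction, since the limit uses Hba-a2 itself. For Fn1, a gene of macrophages and stroma, the difference was −5.66 (standard error 0.78, adjusted p = 0.00678), with 60.1 and 125 UPM in TLR9-/- T cells and 3.44 and 0 in WT T cells. In natural killer cells Fn1 was 71.5 and 154 against 149 and 123 UPM, from 12 cells (6 and 3 against 2 and 1). The WT values thus rest on 26 UMIs of 2 cells and 11 UMIs of 1 cell. The 19 members held 39.4% of the Fn1 UMIs, and in WT T cells Fn1 had 1 and 0 UMIs. It still passed with the cells of other lineages left out (−5.79, adjusted p = 0.0125), and over 7 monocyte markers, Fn1 among them, the median in T cells was 1.20. Hbb-bt did not pass without TLR9-/- 1 (3.94, adjusted p = 0.0658), nor Fn1 without WT 1 (−8.66, adjusted p = 0.0760). None of the natural killer receptor or effector lists held a gene that passed.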

How the data were processed

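Per the labels and the study's methods, the authors mapped the reads to mm10 with Cell Ranger and STAR and used Seurat 2.3.4 in their own analysis. The deposited matrices name Cell Ranger 3.0.1 and hold counts of UMIs per gene and called cell, with no normalization. Barcodes in the files numbered 11069, 9173, 11108 and 9195 in TLR9-/- 1, TLR9-/- 2, WT 1 and WT 2.

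Cells with 200 to 10000 detected genes and at most 10% mitochondrial UMIs were kept (10781, 8918, 10573 and 8895 cells). The study's methods print the mitochondrial limit as a far smaller percentage, which was read as a fraction. Doublets were kept, and the cells with the highest Scrublet scores (0.8% per 1000 cells) were left out as an alternative. UMIs were summed per library and tested with edgeR 4.0.16 (filterByExpr, TMM, glmQLFit), and DESeq2 1.42.0 was an alternative. Standard errors were derived from the fold change and its F statistic. The tests were also run on simulated counts with known changes, drawn with the same dispersion for all genes and without cells of other lineages. Such counts cannot check calls that rest on few cells. The same-numbered libraries were not taken as pairs, since the labels do not say that the numbers mark the 2 experiments. Where the text gives values of the 4 libraries they follow the order TLR9-/- 1, TLR9-/- 2, WT 1, WT 2. Gene positions come from GENCODE M21 on GRCm38, in which 31011 of the 31053 gene identifiers of the files were found.

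The natural killer rule, the gene lists and the tests were chosen with earlier results of these data known. Named genes were the 15 with the largest ratio to other cells, up to 10 per direction at an adjusted p under 0.05 with both same-numbered pairs in agreement, or the 5 with the smallest p where fewer than 3 passed, and the 4 members of each list with the highest CPM. Other genes in the text were chosen after their values were seen. Since each mouse gave 1 library, p-values measure the spread between 2 mice per genotype. Some genes are not reported here.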

Additional observations from a re-analysis of the deposited data

Results flagged for a closer look

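The difference between natural killer and T cells in their response to the genotype stood out in 3 genes. It was 4.14 for Hbb-bt, 4.34 for Hba-a2 and −5.66 for Fn1 on the log2 scale (natural killer minus T cells, edgeR's quasi-likelihood test of the interaction with Benjamini-Hochberg adjustment, adjusted p under 0.05). Hbb-bt and Hba-a2 encode globins, and Fn1 encodes fibronectin. Without a library term only Hba-a2 passed (edgeR, adjusted p = 0.00117). Hbb-bt (4.15) and Fn1 (−5.77, adjusted p = 0.224) then kept the size of their difference but did not pass. In all 3 genes, the larger difference between genotypes lay in T cells. Hbb-bt had 153 and 47.5 UPM (UMIs per 1000000 UMIs of the class) in TLR9-/- T cells and 1910 and 612 in WT T cells, against 105 and 28.6 and 74.3 and 22.3 in natural killer cells. Erythroid markers in T cells had a median log2 fold change of −2.77 over 7 genes and monocyte markers 1.20 over 7. With cells that held UMIs of other lineages left out of both cell types, Hba-a2 was −0.63 (adjusted p = 0.958), in part by construction, since the globin genes are on the erythroid list, and Fn1 was −5.79 (adjusted p = 0.0125). The Fn1 UMIs of WT natural killer cells came from 2 cells in WT 1 and 1 cell in WT 2, and WT T cells had 1 and 0 UMIs.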

How the results depend on the processing

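For the share of natural killer cells the log2 ratio of 0.08 became 0.34 with each cell thinned to 1000 UMIs, −0.053 without Scrublet-marked cells, −1.17 per 100 T plus natural killer cells and −0.89 when that share was also thinned (chosen after seeing the data). It ranged from −0.73 to 0.89 with 1 library left out. The difference in cells with G2/M UMIs ranged from 2.22 points at 500 UMIs, where it was −0.81 without TLR9-/- 1, to 14.1 without thinning, and from 5.34 to 11.6 with 1 library left out at 1000 UMIs. With the replicate block (library number as a pairing), the share was 0.08 and that difference 8.47, while 0 genes passed in either direction (224 with an unadjusted p under 0.05), against 7 without it. The numbers are not stated to pair the mice, and the deviations of the libraries numbered 1 correlated at 0.14 over 2474 genes. Genes higher, lower and in all numbered 24, 9 and 33 without the filter on low counts, 3, 0 and 3 with at least 4 UMIs, 2, 1 (Cst3) and 3 without Scrublet-marked cells, and 3, 0 and 3 without the members of other lineages. DESeq2 gave 7 higher, 6 of them shared with edgeR, and 1 lower gene, Trim12a. With 1 library left out the number ranged from 11 to 49 higher, 2 to 16 lower and 13 to 65 in all, 13 without TLR9-/- 1, 20 without TLR9-/- 2, 65 without WT 1 and 19 without WT 2, where each fit has a lone sample that is assumed to vary like the other group. Camp went to −0.86 and Ngp to 0.37 without Scrublet-marked cells. For the difference from T cells, 7 higher, 4 lower and 11 in all passed without the filter, 1, 0 and 1 without a library term, and 0, 1 and 1 without cells of other lineages (chosen after seeing the data), with Hba-a2 at −0.63 and Gpx1 at −0.046. With 1 library left out the range was 2 to 26, 0 to 5 and 4 to 31. The cause of these changes was not tested. The 41 and 49 natural killer cells of TLR9-/- 2 and WT 2 limit the precision of the values that rest on natural killer cells.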
